A study of Mus musculus with 12 samples.

Results

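The genes described here are 28 genes of cholesterol and fatty acid synthesis, taken by gene symbol from the 52550 genes of a count table of whole mouse lungs. They comprise 14 sterol synthesis enzymes (Hmgcs1, Mvk, Pmvk, Mvd, Idi1, Fdps, Fdft1, Sqle, Lss, Cyp51, Msmo1, Nsdhl, Sc5d and Dhcr7), 4 genes of the sterol regulatory element-binding proteins (SREBPs) and their control (Insig1, Srebf1, Srebf2 and Scap), 9 enzymes of fatty acid synthesis, elongation and desaturation (Fasn, Acaca, Acly, Scd1, Scd2, Elovl1, Elovl6, Fads1 and Fads2) and the cholesterol exporter Abca1. Each symbol occurred once in the table, and all 28 passed the filter on low counts, along with 15885 protein-coding genes in all.

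Lungs came from C57BL/6J mouse pups, either wild type (WT) or Adm+/-, in which 1 of the Adm (adrenomedullin) alleles is deleted in every cell. Pups received lipopolysaccharide (LPS), a bacterial endotoxin, at 6 mg/kg intraperitoneally once a day for 3 days, or an equal volume of phosphate-buffered saline (PBS). Lungs were taken on postnatal day 5, 6 h after the last dose, and 1 RNA sequencing library was made from each. The 4 groups held 3 libraries each. Replicates are named by the library number of the labels, which was 3, 4 and 5 for the WT PBS group, 9, 10 and 11 for WT LPS, 6, 7 and 8 for Adm+/- PBS, and 1, 2 and 12 for Adm+/- LPS, and values by group are given in that order of libraries. The labels do not say whether the pups of a group came from separate litters, so p-values measure the spread between these pups only. The Adm+/- line is a constitutive deletion rather than one of lung cells, and the mice were given the endotoxin into the abdomen.

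Cells make cholesterol from acetyl-CoA through the mevalonate pathway, which runs from HMG-CoA synthase (Hmgcs1) over mevalonate, isoprenoids and squalene to lanosterol and its demethylated products. Fatty acids are built from the same precursor by ATP citrate lyase (Acly), acetyl-CoA carboxylase (Acaca) and fatty acid synthase (Fasn), and are then lengthened by elongases (Elovl genes) and desaturated by stearoyl-CoA and fatty acid desaturases (Scd and Fads genes). When sterols are scarce, Scap escorts the SREBPs (Srebf1 and Srebf2) from the endoplasmic reticulum to the Golgi for activation. When sterols are abundant, Insig1 holds the SREBPs back, and oxysterols activate the liver X receptors (LXRs), which raise Abca1. In the lung, type II pneumocytes use these lipids to make surfactant, most of which is phosphatidylcholine with saturated fatty acids, and cholesterol is one of its components.

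Sequence upstream of the transcription start is shown for the 6 members called in WT mice after LPS. Mvd, Msmo1, Elovl6, Fads2 and Abca1 were called in both genotypes, and Hmgcs1 was called in WT mice with a value of the opposite sign in Adm+/- mice. Each line gives the 250 bases before the RefSeq start site in GRCm38.p6 (mm10), read 5′ to 3′ on the strand of the gene. Capitals mark the sterol response element core TCACNCCAC, the NF-Y box CCAAT and the Sp1 box GGGCGG on either strand, so that ATTGG is a CCAAT box on the other strand.
Hmgcs1, chr13:119690101-119690350, + strand: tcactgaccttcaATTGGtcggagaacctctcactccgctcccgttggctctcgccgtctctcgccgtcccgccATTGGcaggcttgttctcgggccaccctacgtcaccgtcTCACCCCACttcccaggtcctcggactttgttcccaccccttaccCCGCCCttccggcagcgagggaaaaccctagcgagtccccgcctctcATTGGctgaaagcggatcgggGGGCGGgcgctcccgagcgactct
Mvd, chr8:122443423-122443672, - strand: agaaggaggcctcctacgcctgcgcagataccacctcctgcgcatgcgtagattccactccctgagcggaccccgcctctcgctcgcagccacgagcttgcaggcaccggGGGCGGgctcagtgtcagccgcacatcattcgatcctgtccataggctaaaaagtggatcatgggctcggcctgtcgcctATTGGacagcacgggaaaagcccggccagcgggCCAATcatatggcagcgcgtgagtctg
Msmo1, chr8:64733579-64733828, - strand: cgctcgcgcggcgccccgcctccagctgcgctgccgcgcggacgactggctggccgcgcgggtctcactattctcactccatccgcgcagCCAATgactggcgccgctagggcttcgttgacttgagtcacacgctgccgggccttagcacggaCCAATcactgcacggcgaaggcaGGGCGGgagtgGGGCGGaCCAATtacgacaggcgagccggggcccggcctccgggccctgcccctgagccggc
Elovl6, chr3:129532136-129532385, + strand: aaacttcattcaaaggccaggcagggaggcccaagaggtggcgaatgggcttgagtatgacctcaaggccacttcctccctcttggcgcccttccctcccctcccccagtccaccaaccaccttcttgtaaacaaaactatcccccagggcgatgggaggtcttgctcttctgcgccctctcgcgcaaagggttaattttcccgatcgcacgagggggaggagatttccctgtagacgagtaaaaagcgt
Fads2, chr19:10101504-10101753, - strand: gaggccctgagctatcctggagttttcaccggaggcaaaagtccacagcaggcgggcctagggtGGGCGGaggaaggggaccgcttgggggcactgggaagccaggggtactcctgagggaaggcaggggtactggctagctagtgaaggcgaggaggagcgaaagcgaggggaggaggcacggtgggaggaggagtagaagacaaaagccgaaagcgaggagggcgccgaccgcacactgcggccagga
Abca1, chr4:53159896-53160145, - strand: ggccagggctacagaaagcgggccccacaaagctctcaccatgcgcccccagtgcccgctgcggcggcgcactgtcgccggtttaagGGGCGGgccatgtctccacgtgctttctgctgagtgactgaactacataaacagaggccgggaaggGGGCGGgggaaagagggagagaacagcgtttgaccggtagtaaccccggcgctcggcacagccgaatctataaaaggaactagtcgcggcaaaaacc

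Of the 28 members, 22 had a promoter in the RefSeq table. Motifs were searched on both strands in 300 bases, from 250 before to 50 after the start, and a gene counted if any of its start sites held the motif. The core TCACCCCAC, a form of the sterol response element that SREBPs bind, was found in 1 of the 22, Hmgcs1, against 0.614% of 27025 genes, and the looser TCACNCCAC in the same member alone, against 1.44%. CCAAT was found in 17 of 22 members (77.3%) and in 41.1% of all genes, GGGCGG in 18 (81.8%) and in 38.2%, and the E-box CANNTG in 18 (81.8%) and in 75%. Within the 250 bases printed, Hmgcs1 held 3 CCAAT boxes, Msmo1 held 3 and Mvd held 2, whereas Elovl6, Fads2 and Abca1 held 0. Mvk and Dhcr7, called lower after LPS in Adm+/- mice and not printed, also held CCAAT and GGGCGG in the 300 bases searched. A match is a description of the letters and was not tested as a binding site.

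Levels are given as CPM, the counts relative to the TMM-scaled library size (TMM, trimmed mean of M-values) of the tested protein-coding genes, which corrects for depth. Total counts ranged from 22382535 to 38062873 per library. Some libraries stood apart from their groups. In WT PBS replicate 5 and Adm+/- PBS replicate 6, protein-coding genes held 77.8% and 80.1% of the counts, against 84.3% to 87.6% in the others, and the transcript Gm26917 held 16.6% and 13.3%. Among the 28 members, WT PBS replicate 5 had the lowest level of all 12 libraries for 10 and the highest for 4. Skeletal muscle markers summed to 734 to 1818 CPM in WT LPS and to 8.0 to 33.3 CPM in the other groups. Of the 10, 9 were tested and all 9 were called higher in WT LPS than in WT PBS, against 10.5% of all genes (adjusted p below 0.05 by edgeR and an absolute log2 fold change above 0.5). Squamous epithelium markers summed to 2924, 26.2 and 1517 CPM in WT LPS replicates 9, 10 and 11 and to 1.99 to 41.4 CPM elsewhere, with Tmprss11b, Krtdap and Sprr3 at 0 in every PBS library. Where leaving out WT PBS replicate 5 and Adm+/- PBS replicate 6 together ended a call, the value without them is given beside it. Without WT LPS replicates 9 and 11 together, WT LPS replicate 10 is alone in its group. From that fit only log2 fold changes are given, and no call is read from it. No WT LPS library was free of the muscle markers, so LPS in WT mice and muscle RNA cannot be told apart by leaving libraries out.

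Markers of type II pneumocytes, the surfactant cells of the lung, summed to 14412 to 19195 CPM over the 12 libraries, Sftpc alone being at 7628 to 11605 CPM. Neutrophil markers summed to 27.6 to 135 CPM in the PBS libraries and 1122 to 1964 CPM in the LPS libraries, and macrophage and monocyte markers to 1009 to 1266 CPM and 1653 to 2327 CPM. LPS led to calls for 17.6% of all genes in WT and 25% in Adm+/- mice. Of the type II pneumocyte markers, 1 of 10 was called in WT mice (higher) and 4 of 10 in Adm+/- mice (3 higher and 1 lower, with a median log2 fold change of 0.43 over the 10). Of the other lists, 7 of 8 neutrophil and 7 of 8 macrophage and monocyte markers were called higher by LPS in WT mice, and 8 of 8 and 6 of 8 in Adm+/- mice. Lyz2, the type II pneumocyte marker called in WT mice, is also on the macrophage and monocyte list and is counted in both. Lipofibroblast markers, of fibroblasts that store lipid, summed to 760 to 954 CPM, and 3 of 8 were called in WT (2 higher and 1 lower) and 5 of 8 in Adm+/- mice (2 higher and 3 lower). Vascular endothelial markers summed to 2741 to 3372 CPM, and 1 of 8 was called in WT and 2 of 8 in Adm+/- mice, all lower. Adipocyte markers, which come from tissue rich in these enzymes, summed to 36.6 to 90.5 CPM, highest in WT PBS replicate 5, where Ucp1 was at 9.39 and Adipoq at 6.12 CPM. Liver markers, from the organ that makes most cholesterol, summed to 15.9 to 76.6 CPM. Of these, 1 of 7 tested adipocyte markers was called in each genotype (higher), and 1 of 7 tested liver markers in WT mice (higher). Whole lung RNA cannot tell a change in the number of cells of a type from a change in RNA per cell, and the part of the cell types in the results below was not tested.

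Adm itself was at 3.96, 7.09 and 4.57 CPM in WT PBS, 7.77, 8.15 and 4.46 in WT LPS, 4.58, 2.87 and 3.62 in Adm+/- PBS and 3.74, 6.28 and 3.92 in Adm+/- LPS. The groups overlapped. The log2 difference of Adm+/- from WT mice was −0.50 ± 0.32 (standard error, SE) in PBS and −0.55 ± 0.31 in LPS, and neither passed edgeR's quasi-likelihood test (adjusted p = 0.999 and 0.480).

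Levels of different genes were compared per length, as CPM per kilobase of exons. The most abundant members over the 12 libraries were Scd2 (99.3 ± 14.2 CPM per kilobase, SD, n = 12), Fasn (78.6 ± 14.5) and Scd1 (78.3 ± 21.9), whose ranges over libraries overlapped each other. All 3 make or desaturate long-chain fatty acids. Acly followed at 40.1 ± 4.08 CPM per kilobase, and its highest library (45.6) was below the lowest of Scd1 (47.4). Srebf2, Abca1, Elovl1, Srebf1 and Hmgcs1 lay between 22.5 and 30.8 CPM per kilobase on average, each overlapping the next in order. The lowest were Idi1 (2.74 ± 0.748), Dhcr7 (2.41 ± 0.750) and Fdps (1.63 ± 0.381), enzymes of isoprenoid synthesis and of the last step to cholesterol. The order differed by treatment, since Elovl6 was at 1.72 and 1.53 CPM per kilobase on average in WT PBS and Adm+/- PBS, below Idi1 and Dhcr7, and at 4.06 and 9.13 in the LPS groups. Besides the step from Scd1 to Acly, no neighbours in the order were separated over all libraries. Scd1 and Scd2 are close paralogs, and reads that fit both could have been divided between them.

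**Figure D1:**
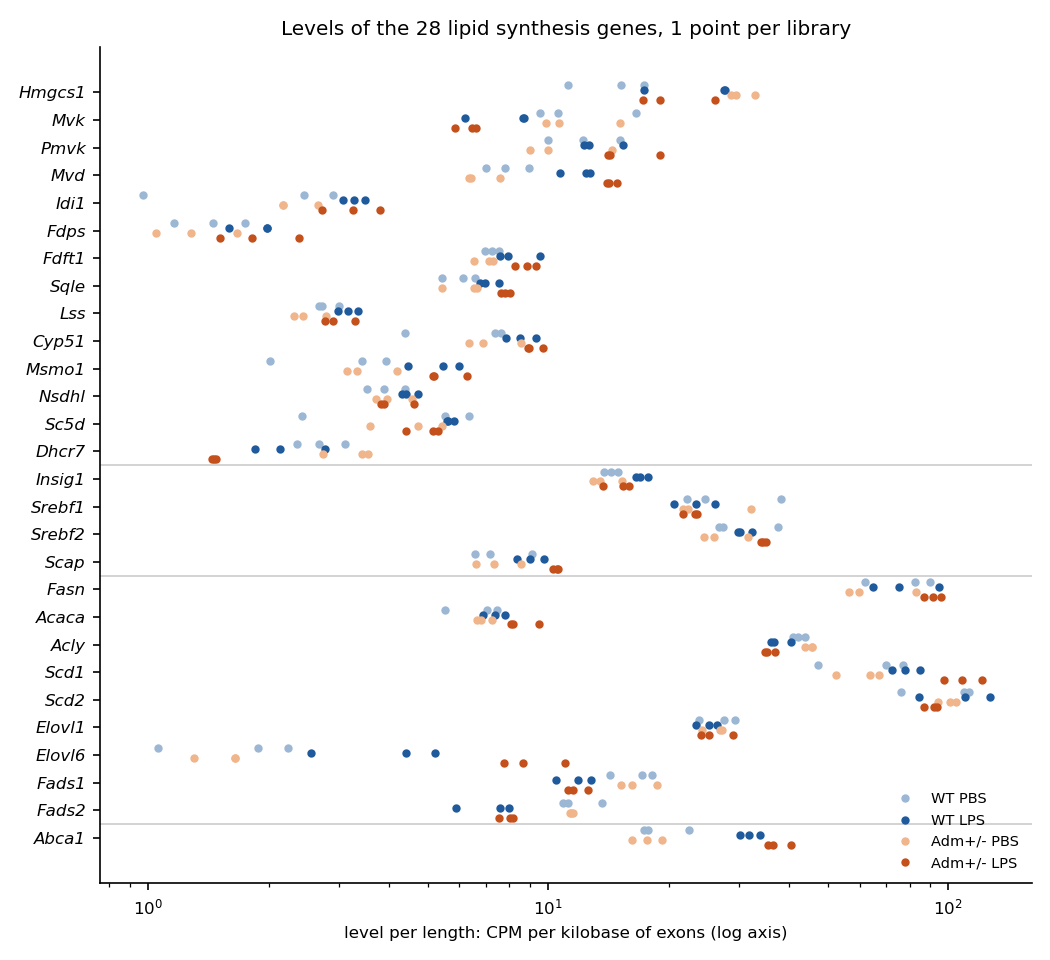
Levels of the 28 genes in CPM per kilobase of exons on a log axis, with 1 point for each of the 12 libraries coloured by group and grey lines between the gene classes (sterol synthesis, SREBPs and their control, fatty acids, export). The fatty acid enzymes Scd2, Fasn and Scd1 lie farthest right, and Elovl6 shows the widest spread between groups, from 1.06 to 11 CPM per kilobase.

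LPS was compared with PBS within each genotype to see how the endotoxin changed lipid synthesis genes. A gene was called at a Benjamini-Hochberg adjusted p below 0.05 over all 15885 genes tested (edgeR's quasi-likelihood test) and an absolute log2 fold change above 0.5. In WT mice 6 of 28 members (21.4%) were called, against 17.6% of all genes tested (10.5% higher and 7.09% lower). Hmgcs1, Mvd, Msmo1, Elovl6 and Abca1 were higher after LPS, and Fads2 was lower. In Adm+/- mice 9 of 28 (32.1%) were called, against 25% of all genes (12.8% higher and 12.2% lower). Mvd, Msmo1, Scd1, Elovl6 and Abca1 were higher, and Mvk, Dhcr7, Fads1 and Fads2 were lower. Both shares were near their background, so the number called is not a result about these genes as a set. Without WT PBS replicate 5 and Adm+/- PBS replicate 6 together, the shares were 21.4% against 15.3% in WT mice and 46.4% (13 members) against 24.4% in Adm+/- mice. Mvd, Msmo1, Elovl6, Abca1 and Fads2 were called in the same direction in both genotypes. When only the libraries of the WT groups were fitted, the WT calls of Hmgcs1, Mvd, Msmo1 and Elovl6 were lost (adjusted p = 0.102, 0.0637, 0.117 and 0.0725) at log2 fold changes of 0.72, 0.59, 0.76 and 1.23, within 0.01 of those from all libraries, and those of Fads2 and Abca1 were kept.

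The median log2 fold change of the 28 members was 0.20 in WT and 0.32 in Adm+/- mice, against 0.01 and −0.01 over all genes tested. Values were positive for 21 members in WT and 19 in Adm+/- mice. LPS and PBS libraries did not overlap for 14 members in WT (50%, against 36.2% of all genes) and for 20 in Adm+/- mice (71.4%, against 53.7%). The 28 counts summed to 3161 to 3441 CPM in WT PBS and 3276 to 3840 CPM in WT LPS, which overlapped. In Adm+/- mice they summed to 3043 to 3395 CPM in PBS and 3767 to 3999 CPM in LPS, which did not. Fasn, Scd1 and Scd2 together made up 47.4% to 54.5% of these sums, which are shares of counts that are not divided by gene length.

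**Figure D2:**
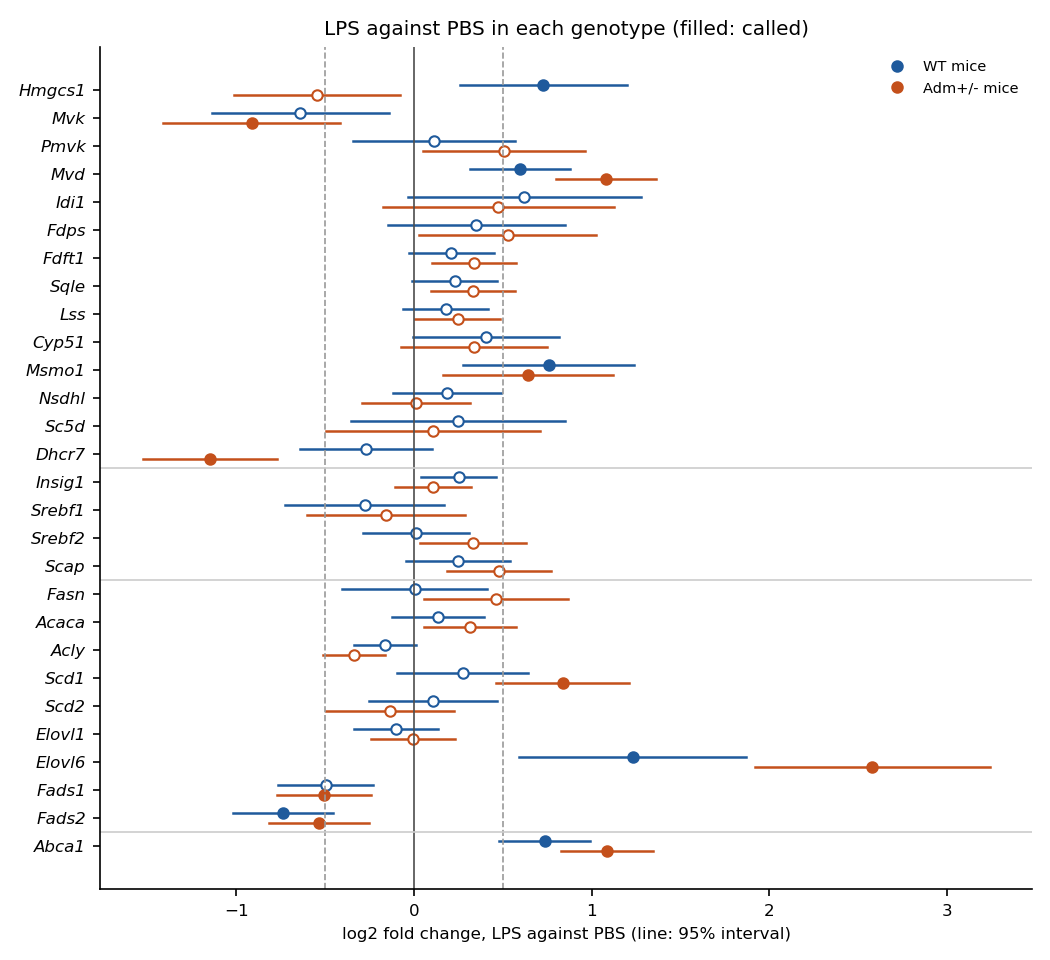
Log2 fold change of LPS against PBS for the 28 genes in WT (blue) and Adm+/- (orange) mice, with 95% intervals as lines, filled points for called genes and dashed lines at −0.5 and 0.5. Elovl6 lies farthest right in both genotypes (1.23 and 2.58), Dhcr7 farthest left in Adm+/- mice (−1.15), and Hmgcs1 is the one gene with intervals on opposite sides of 0.

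Among the 14 sterol synthesis enzymes 3 were called higher and none lower in WT mice, and 2 higher and 2 lower in Adm+/- mice, which is 21.4% and 28.6% against 17.6% and 25% of all genes. Hmgcs1, the synthase that makes HMG-CoA early in the mevalonate pathway, lies on chromosome 13 at 119690379 to 119708260 on the plus strand. It was at 79.7, 69.9 and 51.3 CPM in WT PBS, 126, 127 and 79.8 in WT LPS, 136, 132 and 151 in Adm+/- PBS and 79.1, 120 and 87.6 in Adm+/- LPS. The WT LPS libraries thus lay above the WT PBS libraries, by a margin of 79.8 against 79.7 at the closest, while the Adm+/- LPS libraries lay below the Adm+/- PBS libraries. Its log2 fold change was 0.73 ± 0.21 (SE; 1.66-fold higher, adjusted p = 0.0336) in WT and −0.55 ± 0.21 (adjusted p = 0.0730) in Adm+/- mice, where it was not called. In Adm+/- mice it was called with only the Adm+/- groups fitted (−0.54, adjusted p = 0.0201) and without WT PBS replicate 5, WT LPS replicate 11 or Adm+/- LPS replicate 2, with values of −0.74 to −0.43 over the fits that each left out 1 library. The WT call was lost without any one of WT PBS replicates 4 and 5 and WT LPS replicates 9 and 10 (log2 fold change 0.56 to 0.91 over all 12 fits that each left out 1 library). It was also lost without WT PBS replicate 5 and Adm+/- PBS replicate 6 together (0.56, adjusted p = 0.0945). Without WT LPS replicates 9 and 11 together, the log2 fold change of Hmgcs1 in WT mice was 0.92.

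The next enzymes convert mevalonate to isopentenyl diphosphate, and they did not move together. Mevalonate kinase (Mvk, chromosome 5, 114444269 to 114460591, plus strand) was at 25.5, 28.3 and 44.4 CPM in WT PBS, 16.6, 23.3 and 23.1 in WT LPS, 40.5, 28.4 and 26.4 in Adm+/- PBS and 17.6, 15.6 and 17.3 in Adm+/- LPS. LPS libraries lay below PBS libraries in both genotypes, and the highest PBS values were those of WT PBS replicate 5 and Adm+/- PBS replicate 6. Its log2 fold change was −0.91 ± 0.23 in Adm+/- mice (1.88-fold lower, adjusted p = 0.0109) and −0.64 ± 0.23 in WT mice, where it was not called (adjusted p = 0.0648; 0.0357 by DESeq2). Mevalonate diphosphate decarboxylase (Mvd, chromosome 8, 122433601 to 122443422, minus strand) went the other way, at 13.0, 14.5 and 16.6 CPM in WT PBS, 23.6, 23.0 and 19.9 in WT LPS, 14.1, 11.9 and 11.8 in Adm+/- PBS and 27.6, 26.1 and 26.3 in Adm+/- LPS. All 6 LPS libraries exceeded all 6 PBS libraries. Mvd had log2 fold changes of 0.60 ± 0.13 in WT (1.51-fold, adjusted p = 0.00806) and 1.08 ± 0.13 in Adm+/- mice (2.12-fold, adjusted p = 0.000171). The WT value was 0.65 without WT LPS replicates 9 and 11 together. Phosphomevalonate kinase (Pmvk), which acts between them, had log2 fold changes of 0.11 and 0.51 and was not called (adjusted p = 0.718 and 0.0847).

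Msmo1, a sterol methyl oxidase that removes methyl groups from lanosterol products, lies on chromosome 8 at 64718139 to 64733792 on the minus strand. It was at 24.1, 21 and 12.4 CPM in WT PBS, 33.4, 36.7 and 27.4 in WT LPS, 19.3, 25.7 and 20.4 in Adm+/- PBS and 31.7, 31.9 and 38.6 in Adm+/- LPS. LPS libraries lay above PBS libraries in both genotypes. It rose by 0.76 ± 0.22 (1.69-fold, adjusted p = 0.0310) in WT and 0.64 ± 0.22 (1.56-fold, adjusted p = 0.0441) in Adm+/- mice. Both calls were narrow, since 3 of 12 fits that each left out 1 library lost the WT call (without WT PBS replicate 5, WT LPS replicate 9 or WT LPS replicate 10) and 8 of 12 the Adm+/- call. Without WT LPS replicates 9 and 11 together the log2 fold changes were 0.93 in WT and 0.638 in Adm+/- mice, against 0.76 and 0.640 with them.

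Dhcr7, the reductase of the last step to cholesterol, lies on chromosome 7 at 143823145 to 143848410 on the plus strand. It was at 18, 15.5 and 13.7 CPM in WT PBS, 10.8, 12.4 and 16.1 in WT LPS, 19.9, 20.6 and 15.9 in Adm+/- PBS and 8.38, 8.5 and 8.59 in Adm+/- LPS. The WT groups overlapped, and the Adm+/- LPS libraries were the 3 lowest of all 12 and lay close to each other. Dhcr7 fell by 1.15 ± 0.17 on the log2 scale in Adm+/- mice (2.22-fold lower, adjusted p = 0.000597). In WT mice the log2 fold change was −0.27 ± 0.17 (adjusted p = 0.272).

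The other 9 sterol enzymes were called in neither genotype, and had log2 fold changes between 0.01 and 0.62, all positive, although those of Nsdhl, Sc5d and Pmvk turned negative under some alternatives. Without WT PBS replicate 5 and Adm+/- PBS replicate 6 together, Pmvk (0.73, adjusted p = 0.00824) and Fdps (0.71, adjusted p = 0.0287) were called in Adm+/- mice, and Pmvk was also called without either of them alone. Squalene synthase (Fdft1) and squalene epoxidase (Sqle), the entry into sterols proper, had log2 fold changes of 0.34 and 0.33 in Adm+/- mice with adjusted p of 0.0359 and 0.0378, below the fold threshold, and their groups did not overlap in either genotype. Idi1, the isomerase of isopentenyl diphosphate, was at 10.2, 8.59 and 3.40 CPM in WT PBS and 10.8, 12.2 and 11.4 in WT LPS. WT PBS replicate 5 was the lowest, and the log2 fold change of 0.62 (95% interval −0.04 to 1.28) was not called (adjusted p = 0.157). Sc5d, which desaturates the sterol ring, was likewise at 26.8, 30.9 and 11.8 CPM in WT PBS, and its log2 fold change in WT mice was 0.25 with that library and −0.07 without it and Adm+/- PBS replicate 6. Summed over the 14 enzymes, levels were 313 to 360 CPM in WT PBS, 389 to 469 in WT LPS, 402 to 422 in Adm+/- PBS and 399 to 436 in Adm+/- LPS, so that the treatments overlapped in Adm+/- mice and not in WT mice. This contrast rested on Hmgcs1. The other 13 enzymes summed to 262 to 281 CPM in WT PBS, 302 to 343 in WT LPS, 251 to 288 in Adm+/- PBS and 316 to 328 in Adm+/- LPS, and the treatments overlapped in neither genotype. Exons of Cyp51, Fdft1, Idi1, Lss and Hmgcs1 overlap a gene on the opposite strand, and the strand setting of the counting is not given in the sources used here. Ctsb, which overlaps Fdft1, had 5381 to 8172 counts in PBS and 9714 to 15490 counts in LPS libraries.

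None of the 4 genes of the SREBPs and their control was called in either genotype. Scap, the SREBP escort, had log2 fold changes of 0.25 in WT and 0.48 in Adm+/- mice (adjusted p = 0.199 and 0.0190), the latter just under the fold threshold. Its levels were 63.8, 49.0 and 54.5 CPM in Adm+/- PBS and 76.5, 78.1 and 78.5 in Adm+/- LPS. These did not overlap, and without WT PBS replicate 5 and Adm+/- PBS replicate 6 the log2 fold change was 0.59 and the gene was called (adjusted p = 0.00101). Srebf2, the isoform that acts mainly on sterol genes, had log2 fold changes of 0.01 and 0.33 (adjusted p = 0.965 and 0.0849). Srebf1, which acts mainly on fatty acid genes, had −0.28 and −0.16 (adjusted p = 0.346 and 0.597), with its highest levels in WT PBS replicate 5 (215 CPM) and Adm+/- PBS replicate 6 (181 CPM) against 116 to 147 CPM in the other 10 libraries. Insig1 had 0.25 and 0.11 (adjusted p = 0.0861 and 0.442). It was at 46.1, 44.5 and 42.6 CPM in WT PBS and 52.4, 54.8 and 51.3 in WT LPS, which did not overlap.

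Among the 9 enzymes of fatty acid metabolism, Elovl6 was called higher and Fads2 lower in both genotypes, and Scd1 higher and Fads1 lower in Adm+/- mice, which is 22.2% and 44.4% of the 9 against 17.6% and 25% of all genes. Elovl6, which lengthens palmitate to stearate, lies on chromosome 3 at 129532355 to 129638495 on the plus strand. It was at 12.1, 14.4 and 6.80 CPM in WT PBS, 28.4, 33.6 and 16.4 in WT LPS, 10.6, 10.6 and 8.35 in Adm+/- PBS and 49.9, 70.8 and 55.5 in Adm+/- LPS. All LPS libraries lay above all PBS libraries, and all Adm+/- LPS libraries above all WT LPS libraries. Its log2 fold change was 1.23 ± 0.29 in WT (2.35-fold, adjusted p = 0.0130) and 2.58 ± 0.30 in Adm+/- mice (5.97-fold, adjusted p = 0.000152). These were the largest fold changes among the 28 members in both genotypes. The WT call was lost without WT LPS replicate 9 (1.16, adjusted p = 0.0537), and the Adm+/- call was kept in each of the 12 fits that left out 1 library.

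Scd1 introduces the unsaturation of stearate and palmitate, and lies on chromosome 19 at 44394455 to 44407879 on the minus strand. It was at 342, 377 and 232 CPM in WT PBS, 381, 415 and 354 in WT LPS, 313, 328 and 257 in Adm+/- PBS and 531, 595 and 477 in Adm+/- LPS. The WT groups overlapped, and the Adm+/- LPS libraries were the 3 highest. Its log2 fold change was 0.84 ± 0.17 in Adm+/- mice (1.79-fold, adjusted p = 0.00357) and 0.27 ± 0.17 in WT mice (adjusted p = 0.259). Its paralog Scd2 had log2 fold changes of 0.11 and −0.13 (adjusted p = 0.662 and 0.574).

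Fads1 and Fads2 are the delta-5 and delta-6 desaturases of polyunsaturated fatty acids and neighbours on chromosome 19, Fads1 at 10182888 to 10196877 on the plus strand and Fads2 at 10062765 to 10101746 on the minus strand. Fads1 was at 87.3, 82.4 and 68.6 CPM in WT PBS, 50.3, 57.1 and 61.6 in WT LPS, 73.2, 77.7 and 89.8 in Adm+/- PBS and 55.3, 60.3 and 53.9 in Adm+/- LPS. Fads2 was at 37, 35.9 and 45.0 CPM in WT PBS, 19.4, 25.0 and 26.3 in WT LPS, 38, 37.4 and 37.6 in Adm+/- PBS and 26.4, 26.9 and 24.9 in Adm+/- LPS. For both genes, all 6 LPS libraries lay below all 6 PBS libraries. Fads2 fell by 0.74 ± 0.13 on the log2 scale in WT (1.67-fold lower, adjusted p = 0.00289) and 0.53 ± 0.13 in Adm+/- mice (1.45-fold lower, adjusted p = 0.00924). Fads1 fell by 0.51 ± 0.12 in Adm+/- mice (1.42-fold lower, adjusted p = 0.00906), and its log2 fold change of −0.497 ± 0.12 in WT mice (adjusted p = 0.0153) was just short of the fold threshold, so that it was not called there. Fads1 lay at the threshold in both genotypes. Its Adm+/- call was lost with RLE size factors and with DESeq2 (−0.496 in both) and without Adm+/- PBS replicate 8, Adm+/- LPS replicate 1 or Adm+/- LPS replicate 12 (−0.57 to −0.42 over the 12 fits), and it was called in WT mice with limma-voom (−0.501), without WT PBS replicate 5 and Adm+/- PBS replicate 6 together (−0.59, adjusted p = 0.00512) and after 6 of the 12 removals of a single library, so the genotypes are not told apart by these calls. The log2 fold change of Fads2 in WT mice was −0.65 without WT LPS replicates 9 and 11 together. The Fads2 call in Adm+/- mice was lost without Adm+/- LPS replicate 12 (−0.4997).

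The other 5 enzymes, Fasn, Acaca, Acly, Scd2 and Elovl1, were called in neither genotype. Fasn was at 677, 902 and 987 CPM in WT PBS and 710, 1039.6 and 822 in WT LPS, and its log2 fold change was 0.003 (95% interval −0.40 to 0.41). In Adm+/- mice it was at 910, 620 and 656 CPM in PBS and 1052, 1003 and 954 in LPS, with a log2 fold change of 0.46 (0.05 to 0.87, adjusted p = 0.0804), and without WT PBS replicate 5 and Adm+/- PBS replicate 6 it was called (0.65, adjusted p = 0.0117). Acly had log2 fold changes of −0.16 in WT and −0.34 in Adm+/- mice (adjusted p = 0.165 and 0.00822, the latter under the fold threshold), and Acaca 0.14 and 0.31 (adjusted p = 0.428 and 0.0645). Elovl1, which lengthens very long chains, had −0.10 and −0.005 (adjusted p = 0.520 and 0.979).

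Abca1, which exports cholesterol and phospholipid to lipoproteins, lies on chromosome 4 at 53030787 to 53159895 on the minus strand. It was at 180, 233 and 184 CPM in WT PBS, 351, 330 and 313 in WT LPS, 182, 168 and 199 in Adm+/- PBS and 368, 420 and 379 in Adm+/- LPS. All LPS libraries lay above all PBS libraries, and all Adm+/- LPS libraries above all WT LPS libraries. The log2 fold change was 0.74 ± 0.12 in WT (1.66-fold, adjusted p = 0.00174) and 1.08 ± 0.12 in Adm+/- mice (2.12-fold, adjusted p = 0.000107), the smallest adjusted p of the 28 members in both genotypes. It was called in both genotypes in each of the 12 fits that left out 1 library.

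**Figure D3:**
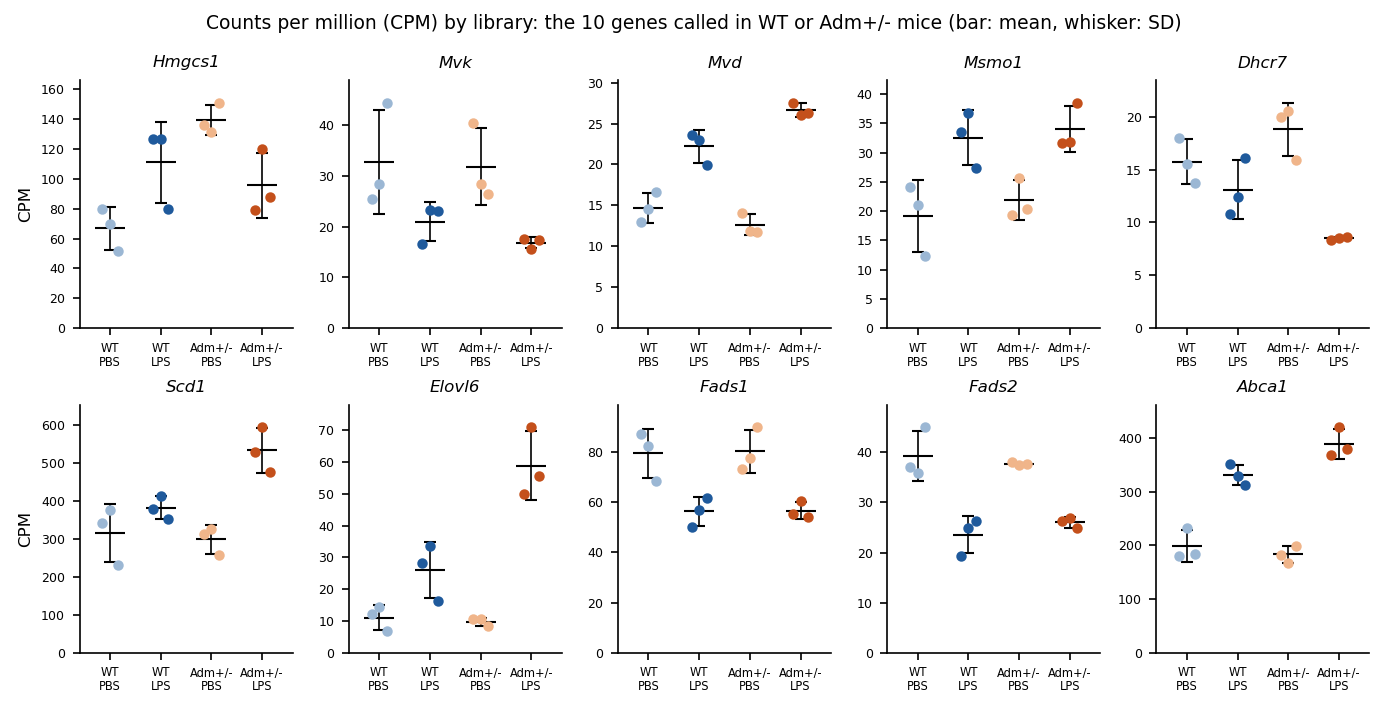
CPM of the 10 genes called in WT or Adm+/- mice, with 1 point per library, the group mean as a bar and the SD as whiskers (n = 3 per group). Abca1, Mvd and Elovl6 are higher in every LPS library than in every PBS library, Fads1 and Fads2 are lower, and Hmgcs1 is higher in the 3 WT LPS libraries and lower in the 3 Adm+/- LPS libraries than in the PBS libraries of the same genotype.

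**Figure D4:**
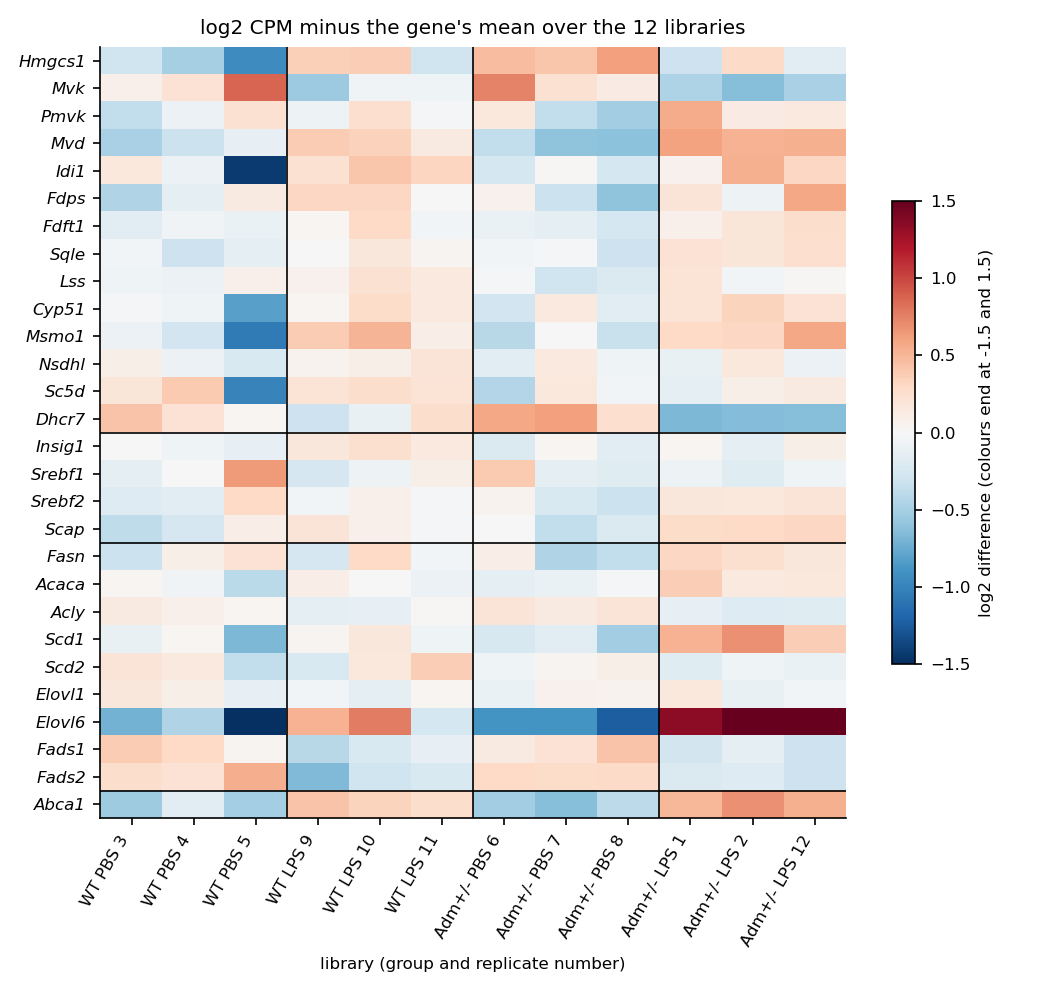
Log2 CPM of the 28 genes (rows) in the 12 libraries (columns), each minus the mean of the gene over all libraries, with blue below and red above the mean and black lines between groups and gene classes. WT PBS replicate 5 shows the lowest value of 10 genes, Idi1, Msmo1 and Sc5d among them, and Elovl6 is red in the 3 Adm+/- LPS libraries.

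The difference between the LPS responses of Adm+/- and WT mice was tested as an interaction. No member was called by edgeR's quasi-likelihood test, against 0.145% of all genes (23 genes), and 5 of 28 members had an unadjusted p below 0.05, against 7.85% of all genes. The largest were Elovl6 (log2 difference 1.35 ± 0.41, adjusted p = 0.402), Hmgcs1 (−1.27 ± 0.30, adjusted p = 0.233) and Dhcr7 (−0.88 ± 0.24, adjusted p = 0.327), followed by Scd1 (0.56 ± 0.24, adjusted p = 0.586) and Mvd (0.48 ± 0.18, adjusted p = 0.507). DESeq2 called 1 member, Hmgcs1 (−1.27, adjusted p = 0.0143). These 5 were chosen by their unadjusted p, so their unadjusted 95% intervals exclude 0 by that choice, for example −1.94 to −0.61 for Hmgcs1. None passed edgeR's test after adjustment over all genes. The difference is built from the same libraries as the contrasts within each genotype.

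Between the genotypes in PBS, no member was called, and neither was any other gene (0%, with 344 genes at an unadjusted p below 0.05, 2.17% of those tested). Hmgcs1 was the only member with an unadjusted p below 0.05. Its Adm+/- PBS libraries (132 to 151 CPM) lay above its WT PBS libraries (51.3 to 79.7 CPM), 2.08-fold on average (log2 difference 1.06 ± 0.22, adjusted p = 0.999; 0.0599 by DESeq2). The other 27 members had log2 differences between −0.23 and 0.25. Groups did not overlap for 2 of 28 members (7.14%), against 4.99% of all genes.

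Between the genotypes in LPS, no member was called, against 2.05% of all genes, and 3 of 28 had an unadjusted p below 0.05, against 14.3% of all genes. Elovl6 was 2.25-fold higher in Adm+/- LPS than in WT LPS (log2 difference 1.17 ± 0.29, adjusted p = 0.0607), and DESeq2 and limma-voom called it (adjusted p = 0.00305 and 0.0370). Dhcr7 was 1.54-fold lower (−0.62 ± 0.17, adjusted p = 0.0878; 0.0199 by DESeq2), and Scd1 had a log2 difference of 0.48 ± 0.17 (adjusted p = 0.195). Groups did not overlap for 11 of 28 members (39.3%), against 24.6% of all genes. The WT LPS libraries in this comparison are those with the skeletal muscle markers, and WT LPS replicates 9 and 11 also those with the squamous markers.

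The wider pathway was counted in lists written with earlier results of these data known. Of 17 other genes of sterol synthesis and uptake, 1 was called in WT mice (higher) and 5 in Adm+/- mice (4 higher and 1 lower), which is 5.88% and 29.4% against 17.6% and 25% of all genes, with median log2 fold changes of 0.16 and 0.19. None was called in both genotypes.

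Of 28 tested genes of fatty acid activation and triglyceride synthesis, 4 were called in WT (all higher) and 6 in Adm+/- mice (5 higher and 1 lower), which is 14.3% and 21.4% against 17.6% and 25% of all genes, with median log2 fold changes of 0.21 and 0.14. Lpin1, Dgat2 and Elovl4 were called higher in both genotypes. Lpin1, the phosphatidate phosphatase that makes diacylglycerol, had log2 fold changes of 1.13 ± 0.22 in WT and 1.58 ± 0.22 in Adm+/- mice (adjusted p = 0.00444 and 0.000369). Dgat2, which makes triglyceride from diacylglycerol, rose by 1.46 ± 0.20 (adjusted p = 0.000757) and 1.24 ± 0.20 (adjusted p = 0.000856). Elovl4, which builds very long chains, was at 0.388 to 1.09 CPM in WT PBS and 2.58 to 3.50 in WT LPS, resting on 8 to 28 and 62 to 92 counts. Its log2 fold change in WT mice was 1.81 without WT LPS replicates 9 and 11 together, against 2.01 with them. Acsl1, a long-chain acyl-CoA synthetase that was singled out after its values had been seen, was at 49.1, 35 and 45.6 CPM in WT PBS, 67.6, 61.3 and 69.5 in WT LPS, 38.2, 41.5 and 40.3 in Adm+/- PBS and 42.7, 44.7 and 41 in Adm+/- LPS. It was called in WT mice (0.61 ± 0.12, adjusted p = 0.00556), had a log2 fold change of 0.10 in Adm+/- mice (adjusted p = 0.583), and was lower in Adm+/- LPS than in WT LPS (−0.63 ± 0.12, adjusted p = 0.0239). The difference between the responses did not pass (−0.52, adjusted p = 0.444). The WT call of Acsl1 was lost without WT PBS replicate 4 (0.48) and with only the WT groups fitted (adjusted p = 0.0600). The call between genotypes was lost in 4 of 12 fits that each left out 1 library, those without WT LPS replicate 11 or any one of the Adm+/- LPS replicates. Without WT LPS replicates 9 and 11 together, the log2 values were 0.50 for LPS in WT mice and −0.52 between the genotypes in LPS.

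Of 14 tested genes of LXR signalling, oxysterol metabolism, cholesterol esterification and export, 4 were called in WT (all higher) and 6 in Adm+/- mice (5 higher and 1 lower), which is 28.6% and 42.9% against 17.6% and 25% of all genes. Medians of that list were 0.20 and 0.22. Ch25h, which makes 25-hydroxycholesterol, was at 0.194, 0.874 and 0.124 CPM in WT PBS, 13.2, 3.29 and 1.19 in WT LPS, 0.105, 0.101 and 0.278 in Adm+/- PBS and 14.6, 13.7 and 14.8 in Adm+/- LPS. LPS libraries lay above PBS libraries in both genotypes, and WT LPS replicate 9 lay well above WT LPS replicates 10 and 11. Its log2 fold change was 3.88 ± 0.86 in WT and 6.42 ± 0.95 in Adm+/- mice (adjusted p = 0.00915 and 0.000558), the PBS levels resting on 2 to 18 counts. The WT value was 2.46 without WT LPS replicate 9 and 5.12 without WT PBS replicate 4, and the call was lost with only the WT groups fitted (3.87, adjusted p = 0.0650). The Adm+/- value was 7.06 without Adm+/- PBS replicate 8. Cyp7b1, which breaks down 25-hydroxycholesterol, was at 1.54 to 3.93 CPM in WT PBS, 6.53 to 18.3 in WT LPS, 2.58 to 3.04 in Adm+/- PBS and 22.8 to 24.7 in Adm+/- LPS. It rose by 2.37 ± 0.38 (adjusted p = 0.00168) and 3.07 ± 0.38 (adjusted p = 0.000202). Soat2, which esterifies cholesterol, rose by 2.76 ± 0.44 (adjusted p = 0.00169) and 3.85 ± 0.46 (adjusted p = 0.000172), and Mylip, a ubiquitin ligase that LXRs raise, by 0.52 ± 0.16 (adjusted p = 0.0440) and 0.67 ± 0.16 (adjusted p = 0.00959). The WT value of Soat2 was 3.37 without WT PBS replicate 4. The Mylip call in WT mice was lost in 9 of 12 fits that each left out 1 library, and without WT PBS replicate 5 and Adm+/- PBS replicate 6 together (0.49, adjusted p = 0.0855). Its WT value was 0.24 without WT LPS replicates 9 and 11 together. Abcg1, another cholesterol exporter that LXRs raise along with Abca1, had log2 fold changes of 0.15 and −0.10 (adjusted p = 0.443 and 0.608).

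Cyp27a1, which makes 27-hydroxycholesterol, was singled out after its values had been seen. It was at 6.37, 6.70 and 8.40 CPM in WT PBS, 7.70, 4.87 and 7.96 in WT LPS, 9.36, 7.47 and 7.95 in Adm+/- PBS and 3.14, 2.60 and 3.17 in Adm+/- LPS. The WT groups overlapped, and the Adm+/- LPS libraries were the 3 lowest of all 12. It fell by 1.47 ± 0.21 on the log2 scale in Adm+/- mice (2.77-fold lower, adjusted p = 0.000462), had a log2 fold change of −0.06 ± 0.20 in WT mice (adjusted p = 0.858), and was 2.30-fold lower in Adm+/- LPS than in WT LPS (adjusted p = 0.0151). That call was lost in 4 of 12 fits that each left out 1 library, those without WT LPS replicate 11 or any one of the Adm+/- LPS replicates. Without WT LPS replicates 9 and 11 together, the log2 difference between the genotypes in LPS was −0.71. The difference between the responses was −1.41 ± 0.29 (adjusted p = 0.129; 0.00269 by DESeq2).

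Surfactant genes were counted because they take up the products of these enzymes. Of 16, 1 was called in WT mice (higher, 6.25% against 17.6% of all genes) and 4 in Adm+/- mice (3 higher and 1 lower, 25% against 25%), with median log2 fold changes of 0.17 and 0.23. Sftpd, a surfactant collectin of innate defence, was at 161, 180 and 251 CPM in WT PBS, 378, 306 and 310 in WT LPS, 195, 155 and 142 in Adm+/- PBS and 575, 408 and 450 in Adm+/- LPS. All LPS libraries lay above all PBS libraries, and it rose by 0.75 ± 0.19 (adjusted p = 0.0181) and 1.54 ± 0.19 (adjusted p = 0.000217). The WT call was lost without WT PBS replicate 3, WT PBS replicate 4 or WT LPS replicate 9 (0.62 to 0.96 over the 12 fits), and with only the WT groups fitted (adjusted p = 0.0555). The WT value was 0.63 without WT LPS replicates 9 and 11 together. Lpcat1, which makes the saturated phosphatidylcholine of surfactant, had a log2 fold change of −0.38 ± 0.10 in WT (adjusted p = 0.0241, under the fold threshold) and fell by 0.61 ± 0.10 in Adm+/- mice (adjusted p = 0.00137). Sftpc, 1 of the 10 type II pneumocyte markers, had log2 fold changes of −0.09 and −0.04 (adjusted p = 0.656 and 0.844).

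**Figure D5:**
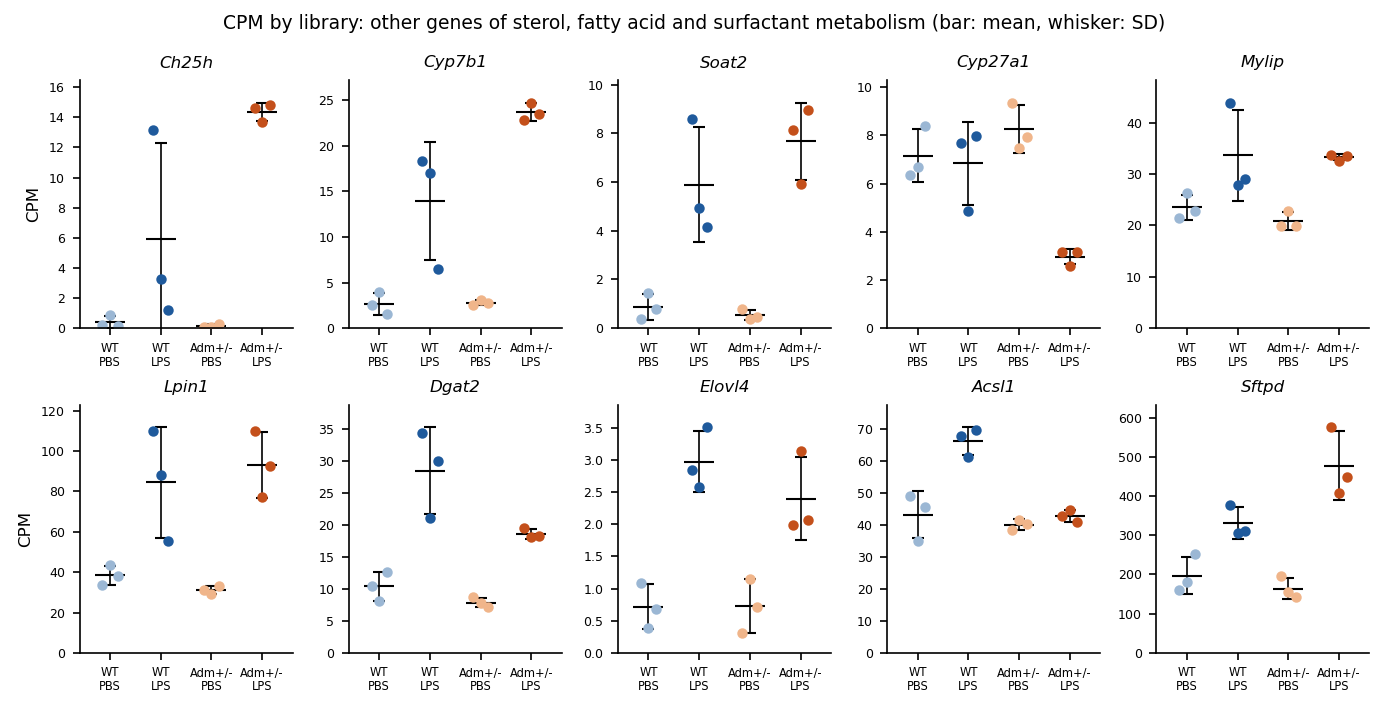
CPM of 10 other genes of sterol, fatty acid and surfactant metabolism, with 1 point per library, the group mean as a bar and the SD as whiskers (n = 3 per group; the axis starts at 0). Ch25h, Cyp7b1, Soat2, Lpin1, Dgat2 and Sftpd are higher in every LPS library than in every PBS library, Cyp27a1 is lowest in the 3 Adm+/- LPS libraries, and Acsl1 is highest in the 3 WT LPS libraries.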

How the data were processed

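RNA was depleted of ribosomal RNA and made into directional libraries. Per the study's methods and the submitters' processing notes, reads were trimmed with Trim Galore, aligned to mm10 with HISAT2 and counted on Gencode genes with featureCounts; the Gencode release and the strand setting are not given in the sources used here. The authors deposited raw counts for 52550 genes in 12 libraries, and no normalization or gene filter had been applied. Total counts ranged from 22382535 to 38062873 per library, reads carry no molecular identifiers, and no pair of replicates held identical counts.

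Of 21950 protein-coding genes, 15885 passed filterByExpr over the 4 groups and were scaled by TMM and tested in a single fit of 12 libraries with 1 coefficient per group and 8 residual degrees of freedom (glmQLFit and glmQLFTest, edgeR 4.0.16, R 4.3.3). Called genes had a Benjamini-Hochberg adjusted p below 0.05 over all genes tested and an absolute log2 fold change above 0.5. Standard errors were derived from the F statistic. CPM used TMM-scaled library sizes, and exon lengths, positions and overlaps came from Gencode M21 (99.7% of gene identifiers found). Promoters are RefSeq sequences. The fit was tested on simulated data.

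The members, the gene lists, the alternatives and the rule for naming genes were chosen with earlier results of these data known. The rule named all 28 members, Adm, the genes of each pathway list called in both genotypes (at most 4), and some genes by name, of which Ch25h, Abcg1, Sftpc and Lpcat1 are given and the others are not reported here. Alternatives were RLE size factors, DESeq2 1.42.0, limma-voom (limma 3.58.1), tests against the fold threshold, other filters, all annotated genes, the compared groups alone, and fits without libraries; the fit without WT LPS replicates 9 and 11 together was added after seeing the data.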

Additional observations from a re-analysis of the deposited data

Results flagged for a closer look

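Hmgcs1 was set apart because all 3 LPS libraries lay above all 3 PBS libraries in WT mice (79.8 to 127 against 51.3 to 79.7 CPM) and below all 3 in Adm+/- mice (79.1 to 120 against 132 to 151 CPM). The difference between the LPS responses was itself tested and was −1.27 on the log2 scale (95% interval −1.94 to −0.61), which edgeR's quasi-likelihood test did not pass (adjusted p = 0.233) and DESeq2 did (adjusted p = 0.0143). With 3 libraries per group, no search for single outlying libraries was made.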

How the results depend on the processing

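No paired analysis was possible because the replicate numbers are library numbers from 1 to 12 and no groups share a number. Of the members, 6 were called in WT mice (17.6% of all genes). The count was 0 when tested against the fold threshold (glmTreat and limma-voom treat, 6.3% and 3.41% of all genes) and 2 with only the compared groups (7.39%). It was 3 to 8 when 1 library was left out, 3 being without WT LPS replicate 9 (9%). In Adm+/- mice 9 were called (25%), 4 against the fold threshold by either tool (10.7% and 7.17%), 13 with no fold filter (30.9%) or without WT PBS replicate 5 and Adm+/- PBS replicate 6 together (24.4%), and 6 to 11 when 1 library was left out, 6 being without Adm+/- LPS replicate 12 (18.8%). For the difference in response the count of 0 became 1 with DESeq2, and it stayed 0 in the 12 fits without 1 library. The fit of only the compared groups does not exist for it, since it uses all 4. In LPS, the count of 0 between genotypes became 2 with DESeq2, 1 with limma-voom, 1 without WT PBS replicate 5 and Adm+/- PBS replicate 6 together, and 0 to 1 when 1 library was left out. In PBS it was 0 under every alternative run.

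Signs turned only for genes that were not called. In WT mice they turned for Sc5d (−0.068), Scd2 (−0.0533) and Cyp27a1 (0.0677) without WT PBS replicate 5 and Adm+/- PBS replicate 6, for Srebf2 (−0.0256) and Fasn (−0.0303) with all annotated genes, and for Abcg1 (−0.0811) and Sftpc (0.073) without WT LPS replicates 9 and 11. In Adm+/- mice they turned for Nsdhl (−0.0002 with limma-voom and its treat test, −0.0017 with all annotated genes, −0.0511 without the PBS pair), Sc5d (−0.0369), Srebf1 (0.0487) and Sftpc (0.108) without the PBS pair, and Elovl1 (0.0053 with RLE size factors, 0.005 with DESeq2). Leaving out 1 library gave −0.024 to 0.28 for Pmvk, −0.0683 to 0.50 for Sc5d, −0.0791 to 0.18 for Srebf2, −0.16 to 0.12 for Fasn, −0.0534 to 0.25 for Scd2, −0.0574 to 0.25 for Abcg1 and −0.18 to 0.13 for Cyp27a1 in WT mice, and −0.0807 to 0.10 for Nsdhl, −0.0451 to 0.25 for Sc5d, −0.26 to 0.0399 for Srebf1, −0.0863 to 0.0504 for Elovl1 and −0.15 to 0.0997 for Sftpc in Adm+/- mice. The causes were not tested. By the fold threshold, changes below 0.5 on the log2 scale were not called whatever their p.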
